A study of Mus musculus with 9 samples.

Results

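The 3 libraries described here are the vehicle cultures of the series, those that received DMSO, the solvent of the 2 caspase inhibitors given to the other cultures. They were chosen by their treatment label, and they make up 3 of the 9 libraries of the series. Cells were taken from mouse forelimbs at embryonic day 12, dispersed, plated as high-density drops (micromass cultures) in a serum-containing medium with ascorbic acid and β-glycerol phosphate, and harvested after 6 days with vehicle. No inhibitor, transgene or allele is named for them, and the sources used here do not state the strain, the number of embryos behind a culture or the DMSO concentration. The labels call the cells limb-derived chondroblasts and the 3 cultures biological replicates, and name no sorting step, so every cell type of the forelimb could enter a drop. No culture of another treatment is compared with them here.

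In a micromass culture, limb bud mesenchyme condenses and forms nodules of cartilage, as it does in the embryo. Condensing cells switch on the transcription factor SOX9, which with its partners SOX5 and SOX6 drives genes of cartilage matrix such as type II collagen and aggrecan. Chondrocytes later stop dividing, pass through a prehypertrophic stage marked by Indian hedgehog, and enlarge as hypertrophic cells that make type X collagen. Cells between the nodules can remain fibroblastic or form tendon, perichondrium, muscle or fat, and limb buds also bring in macrophages, blood vessels, nerves and skin.

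Library totals were 6334039, 6053665 and 6752551 counts for DMSO libraries 1, 2 and 3, and between 17301 and 17656 genes had at least 1 count. Values below are CPM, counts scaled to a common library size with TMM factors, always listed in the order of libraries 1, 2 and 3, or as mean ± SD with n = 3. Reads came from the poly(A) ends of transcripts. A long and a short transcript therefore give a read alike, and levels of different genes were compared without dividing by length. Across 12635 genes at or above 1 CPM in all 3 libraries, which were 24.0% of all genes in the table and included 54.6% of protein-coding genes, Pearson's r of log2 CPM was 0.98 between libraries 1 and 2, 0.968 between 1 and 3, and 0.971 between 2 and 3. Library 3 stood somewhat apart, with 746 and 718 of these genes at least 2-fold from library 1 and library 2, against 438 between libraries 1 and 2. Its column in the deposited table also lacks the letter that the names of the other 2 columns carry, and the sources used here do not say why.

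Because no groups were compared, no test was made. An order of 2 genes was taken to hold when it was the same in all 3 libraries, and an exact two-sided sign-flip test over 3 libraries cannot give a p under 0.25. A gene with 0 counts in all 3 libraries was at or under 3 counts over the group, or 0.157 CPM. In a bulk culture, fewer cells of a type and less RNA per cell cannot be told apart, which applies to every cell type level given below.

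Type I collagen genes, imprinted growth genes and general genes of the cytoskeleton, ribosome and mitochondrion led the libraries. The locus Gm42418 had the highest count, at 45264, 48598 and 29168 CPM (ENSMUSG00000098178, chromosome 17, 39846958 to 39848788, plus strand). It is annotated as a long noncoding RNA and is known to collect reads of ribosomal RNA, and 64.1% of the short sequence words at its transcript ends also occur in other genes. Next came Col1a1, a chain of type I collagen, the fibre of bone, skin and tendon, at 11006, 11423 and 13562 CPM (ENSMUSG00000001506, chromosome 11, 94936224 to 94953042, plus strand). Its partner chain gene Col1a2 had 9608, 9629 and 9036 CPM, and Sparc, a collagen-binding matrix glycoprotein gene, had 8455, 7929 and 8696 CPM. Other secreted proteins among the 30 most abundant genes were the follistatin-like protein Fstl1 (3346 ± 217 CPM), the small proteoglycan biglycan (Bgn, 2928 ± 108 CPM), type III collagen (Col3a1, 2720.0 ± 71.7 CPM) and Mgp (2897 ± 595 CPM), an inhibitor of mineral deposition. All collagen genes together held 3.24%, 3.25% and 3.48% of the counts.

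Imprinted growth genes stood beside the collagens. H19, a noncoding RNA expressed from the maternal allele in embryonic tissue, was the third gene at 9875, 8254 and 13227 CPM (ENSMUSG00000000031, chromosome 7, 142575529 to 142578143, minus strand), and its neighbour Igf2, the fetal growth factor expressed from the paternal allele, had 6353, 5604 and 7942 CPM. H19 exceeded Igf2 1.47- to 1.67-fold in each library, although 99.4% of the words at the Igf2 ends are shared with another annotated gene, so its level is uncertain. Against 54.6% of protein-coding genes, 15 of 16 genes of the fixed list of imprinted genes of embryonic growth reached 1 CPM in all 3 libraries. Among them were Mest (1399, 1435 and 1954 CPM), Gnas (2042, 1998 and 2051 CPM), Grb10, a brake on insulin and IGF signalling (768, 776 and 864 CPM), and Cdkn1c, a cell-cycle inhibitor that marks cells leaving division (562, 506 and 538 CPM). The lone member below that level in a library was Phlda2, at 1.42, 1.32 and 0.742 CPM.

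The remaining abundant genes were general ones. Ribosomal protein genes held 8.53%, 8.35% and 8.92% of the counts, with Rps20 at their head (4373 ± 241 CPM). Mitochondrially encoded genes held 2.77%, 2.25% and 2.90%, led by mt-Nd4 (8585, 6677 and 9907 CPM) and mt-Cytb (5994, 4704 and 7621 CPM). Cytoskeletal β-actin (Actb, 7325 ± 273 CPM) and vimentin (Vim, 2791 ± 50.1 CPM) were among the 30. The 10 most abundant genes of each library held 11.8%, 11.5% and 11.2% of its counts, and between 626 and 644 genes together held 50% of them.

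**Figure D1:**
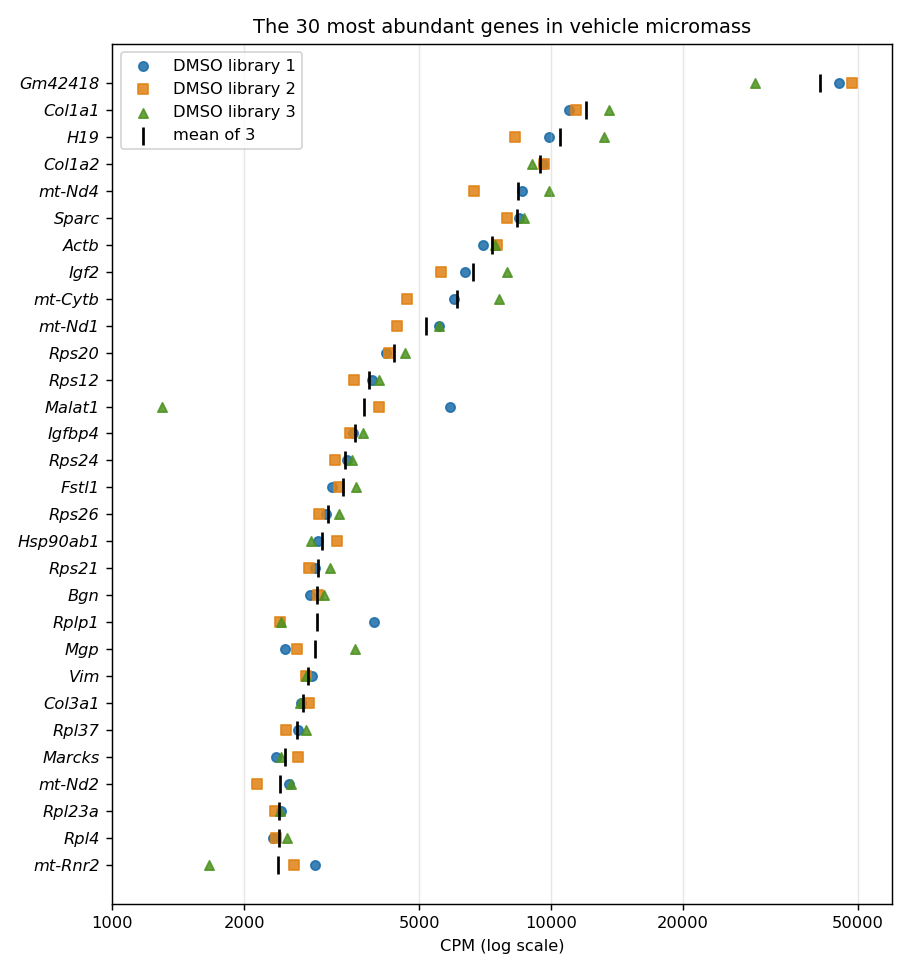
CPM of the 30 most abundant genes (log axis) in DMSO libraries 1, 2 and 3, with the mean of the 3 as a bar. Type I collagen genes, H19 and Sparc follow Gm42418, and Malat1 is the gene whose libraries lie farthest apart, with library 3 at 1295 CPM.

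Some housekeeping genes had low counts for genes that every cell uses, and several of them share sequence with other genes. To describe this, the share of 50-base words in the last 300 bases of a gene's transcripts that occur in another gene's transcripts was counted. It was at least 50% for 943 of 13564 genes at or above 1 CPM on average (6.95%). Gapdh, the glycolytic enzyme gene, had 118, 102 and 136 CPM with 82.9% of its end words shared, and the enolase gene Eno1 had 39.1, 39 and 50.3 CPM with 87.9% shared. The mitochondrial genes mt-Co2, mt-Co3 and mt-Atp6 had 0 counts, with 100.0%, 99.6% and 98.8% of words shared, whereas mt-Nd4 shared 0%. Actg1, the second cytoplasmic actin gene, had only 6.65, 5.10 and 7.42 CPM, although none of its end words were shared with an annotated transcript. How reads that fit several places were counted is not stated in the sources used here, and its part in these levels was not tested. Levels of genes with shared ends are therefore uncertain, and not every such gene is marked where it occurs.

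Forelimb and limb mesenchyme genes were read in all 3 libraries after 6 days. Tbx5, the T-box factor that specifies the forelimb, had 102, 103 and 105 CPM (ENSMUSG00000018263, chromosome 5, 119832668 to 119885219, plus strand). Its hindlimb counterpart Tbx4 had 8.86, 8.06 and 8.61 CPM, which Tbx5 exceeded 11.5- to 12.8-fold, and Pitx1, the hindlimb-specifying homeobox gene, had 0 counts. Prrx1, a homeobox factor of limb mesenchyme, stood at 319.7, 339 and 335 CPM, Shox2, needed for the proximal limb skeleton, at 69.3, 65.8 and 74.8 CPM, and Tbx15 at 177, 151 and 163 CPM. Shh, the signal of the posterior limb bud margin, had 0 counts, and its upstream regulator Hand2 had 41.5, 33.9 and 46.4 CPM. Lmx1b, which specifies dorsal limb mesenchyme, had 19.6, 13 and 19 CPM. All 16 of 16 genes of the limb mesenchyme and condensation list reached 1 CPM in every library, among them Cdh11 (798 ± 15.7 CPM) and Tnc (366 ± 53.9 CPM). The share over protein-coding genes was 54.6%.

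HOX genes, which encode position along the limb, were read mainly from the HOXA and HOXD clusters. Their summed levels were 308, 283 and 307 CPM and 232, 234 and 216 CPM, against 29, 42.9 and 32 CPM for HOXB and 25.2, 30.4 and 26.3 CPM for HOXC. Within HOXA the highest was Hoxa10, a gene of the upper and middle limb, at 110.3, 107 and 111 CPM. It exceeded Hoxa11, needed for the forearm, 2.59- to 2.90-fold, and the digit gene Hoxa13 4.58- to 6.39-fold. The HOXD cluster had another leader. Hoxd13, which patterns the digits, had 106, 98.8 and 85.8 CPM and exceeded Hoxd12 10.5- to 13.9-fold. All 6 neighbouring pairs in the HOXD order kept their order in 3 of 3 libraries, from Hoxd13 through Hoxd11 (38.8, 47.9 and 41.1 CPM, 86.9% of end words shared), Hoxd8, Hoxd10, Hoxd9 and Hoxd12 to Hoxd4. Over all families 154 of 246 such pairs did. Genes of the distal and of the more proximal limb were thus both read, and bulk counts do not say whether single cells expressed both. Posterior HOXC genes were nearly absent, with Hoxc9 at 0, 0.329 and 0 CPM and Hoxc11 at 0 counts.

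**Figure D2:**
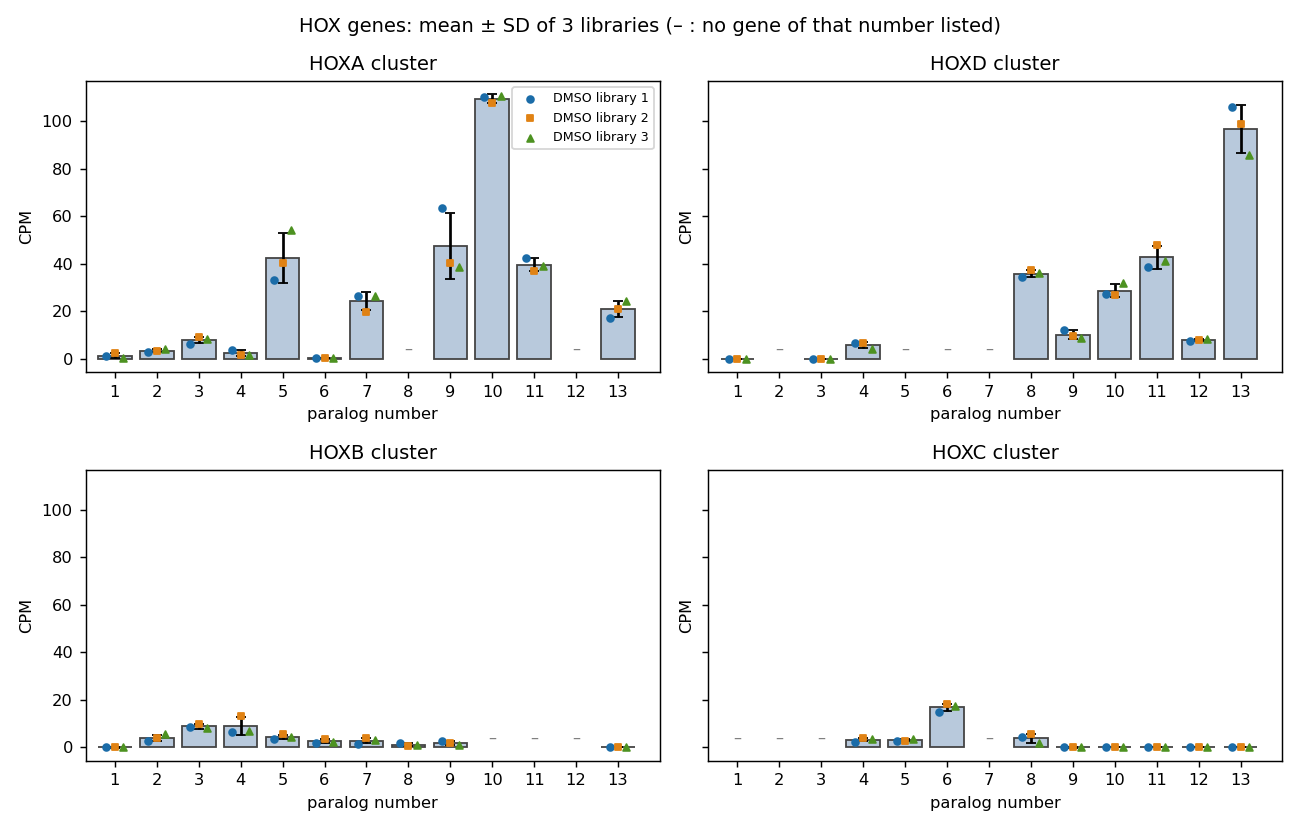
CPM of HOX genes by paralog number in the 4 clusters, as mean ± SD of 3 libraries (bars) with each library as a point. HOXA peaks at Hoxa10 and HOXD at Hoxd13, while HOXC and HOXB genes stay under 20 CPM in every library.

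Genes of immature cartilage matrix were all detected. Of the proliferating and resting cartilage matrix list, 23 of 23 genes reached 1 CPM in all 3 libraries, against 54.6% of protein-coding genes. The summed level of the listed genes was 4957, 3556 and 4885 CPM. Col2a1, the main collagen of cartilage (ENSMUSG00000022483, chromosome 15, 97975602 to 98004695, minus strand), had 1497, 1010.0 and 1579 CPM and was the highest of them, holding 30.5% of the sum. Library 2 was the low one. It was the lowest of the 3 for 14 of 20 list members with a mean of at least 10 CPM, against 32.0% of all 9444 such genes.

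Genes of the collagens that join type II fibrils were read below Col2a1. Col11a1, which nucleates the fibril, had 939, 793 and 1043 CPM, and Col2a1 exceeded it 1.27- to 1.59-fold. The 3 chain genes of type IX collagen, which decorates the fibril surface, had 254, 168 and 279.7 CPM for Col9a1, 125, 68.7 and 146 CPM for Col9a3 and 91.2, 71.7 and 112 CPM for Col9a2. Col9a1 exceeded Col9a2 2.35- to 2.79-fold, so the counts of these chains, which join in a 1 to 1 to 1 trimer, were unequal. For Col9a3, 72.5% of end words were shared.

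The aggrecan gene was lower than each of these collagen genes in every library. Acan, the large proteoglycan that holds water in cartilage, had 84.7, 58.9 and 98.5 CPM (ENSMUSG00000030607, chromosome 7, 79053483 to 79115099, plus strand). Vcan, the proteoglycan of loose mesenchyme that gives way to aggrecan as cartilage matures, had 172, 178 and 169.7 CPM, which was 1.72- to 3.03-fold above Acan. Hapln1, the link protein that fixes both to hyaluronan, had 139.8, 89.3 and 137 CPM. The other hyalectan genes Ncan and Bcan, known from brain, did not pass 1 CPM in any library, nor did Hapln2, Hapln3 and Hapln4. Has2, the main hyaluronan synthase of the limb, had 14.4, 8.06 and 7.12 CPM, and Has1 and Has3 had at most 1.48 CPM in a library.

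Matrilins, which bridge collagen and proteoglycan, were led by Matn4. It had 490.3, 405 and 367 CPM, and exceeded Matn1, a marker of established cartilage, 3.50- to 11.8-fold. Matn1 had 101, 34.4 and 105 CPM and Matn3 3.48, 3.12 and 3.86 CPM. Among the other matrix genes, Cilp2 had 321, 277 and 242 CPM, Comp, a pentameric collagen-binding protein, 246, 159.5 and 175 CPM, and Cnmd, the antiangiogenic chondromodulin, 156, 56.4 and 162 CPM. Ucma, secreted by chondrocytes of the resting and upper growth plate, had 38.3, 14.1 and 38.1 CPM. For Matn1, Cnmd and Ucma libraries 1 and 3 were alike and library 2 was 2.71- to 3.05-fold lower than the highest, whereas Cilp2 and Matn4 were lowest in library 3.

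Of the regulators, Sox9 was far above its partners. Sox9 (ENSMUSG00000000567, chromosome 11, 112782224 to 112787760, plus strand) had 475, 418 and 548 CPM, while its partner genes had 29.9, 23.7 and 33.8 CPM for Sox5 and 26.7, 37.8 and 28.8 CPM for Sox6. Sox9 thus exceeded Sox5 15.9- to 17.7-fold and Sox6 11.1- to 19-fold, and the order of Sox5 and Sox6 differed between libraries. Across the SOX family the highest member was Sox4, a factor of embryonic mesenchyme, at 572, 642 and 650.3 CPM, which exceeded Sox9 1.19- to 1.53-fold, and its relative Sox11 had 98.9, 119 and 147 CPM. Trps1, a repressor active in the growth plate, had 206, 201 and 268 CPM. Nkx3-2, a repressor of chondrocyte maturation, had 0 counts, and Barx2 had 0, 0 and 9 counts.

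Col10a1 and Ihh, which mark later stages, were low, while other prehypertrophic list members such as Mef2c and Pth1r were not. Col10a1, the collagen of hypertrophic cartilage (ENSMUSG00000039462, chromosome 10, 34389981 to 34397085, plus strand), had 15.8, 8.88 and 12 CPM, and Col2a1 exceeded it 94.6- to 131-fold. Col8a1, which encodes a chain of the closely related type VIII network collagen, had 655, 742 and 701 CPM, which was 41.4- to 83.5-fold above Col10a1. Ihh, the signal of prehypertrophic cells, had 2, 1 and 0 counts. Pth1r, the receptor through which PTHrP restrains hypertrophy, had 84, 88 and 85.5 CPM in the same libraries, and its ligand gene Pthlh had 1.42, 1.64 and 0.742 CPM. Mef2c, a driver of hypertrophy that other mesenchymal and muscle cells also express, had 153, 184 and 170.5 CPM, and Runx2, the regulator of hypertrophy and bone, had 15.8, 22.4 and 26.6 CPM. Ptch1, a hedgehog receptor and target, had 20.7, 14 and 13.8 CPM. Gli1, a second target, had 2.53, 0.822 and 1.78 CPM.

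Of the hypertrophic and terminal cartilage list 9 of 13 genes (69.2%) reached 1 CPM in all 3 libraries, against 54.6% of protein-coding genes. The summed level of the list was 348, 257 and 421 CPM. Its highest members were Mmp9, Vegfa, the vascular growth factor gene (74.5, 55.6 and 46.6 CPM), and Ank, a pyrophosphate transport gene (43.5, 41.1 and 55.2 CPM), which other cell types also express. Genes tied more closely to terminal cartilage and mineral were lower. Mmp13, the collagenase of terminal hypertrophic cells, had 1.58, 2.80 and 0.445 CPM. Alpl, the alkaline phosphatase that releases phosphate for mineral, had 3.17, 1.15 and 0.890 CPM, and Ibsp, bone sialoprotein, had 0, 11 and 0 counts. Spp1, osteopontin, which macrophages and osteoclasts also make, had 23.9, 19.2 and 25.7 CPM. Of the osteoblast and osteocyte list, 6 of 15 (40.0%) reached 1 CPM in every library, under the 54.6% of protein-coding genes. Col1a1 and Sparc, which all fibroblasts express, held nearly all of the list's summed level (20478 ± 1642 CPM). Sp7, needed for osteoblast formation, had 1.74, 1.48 and 0.594 CPM, and Mepe had 0 counts. Bglap and Bglap2 also had 0 counts, but 80.1% and 84.1% of their end words were shared, so their absence from the counts is uncertain. The same holds for Phospho1, at 0 counts with 100.0% shared.

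**Figure D3:**
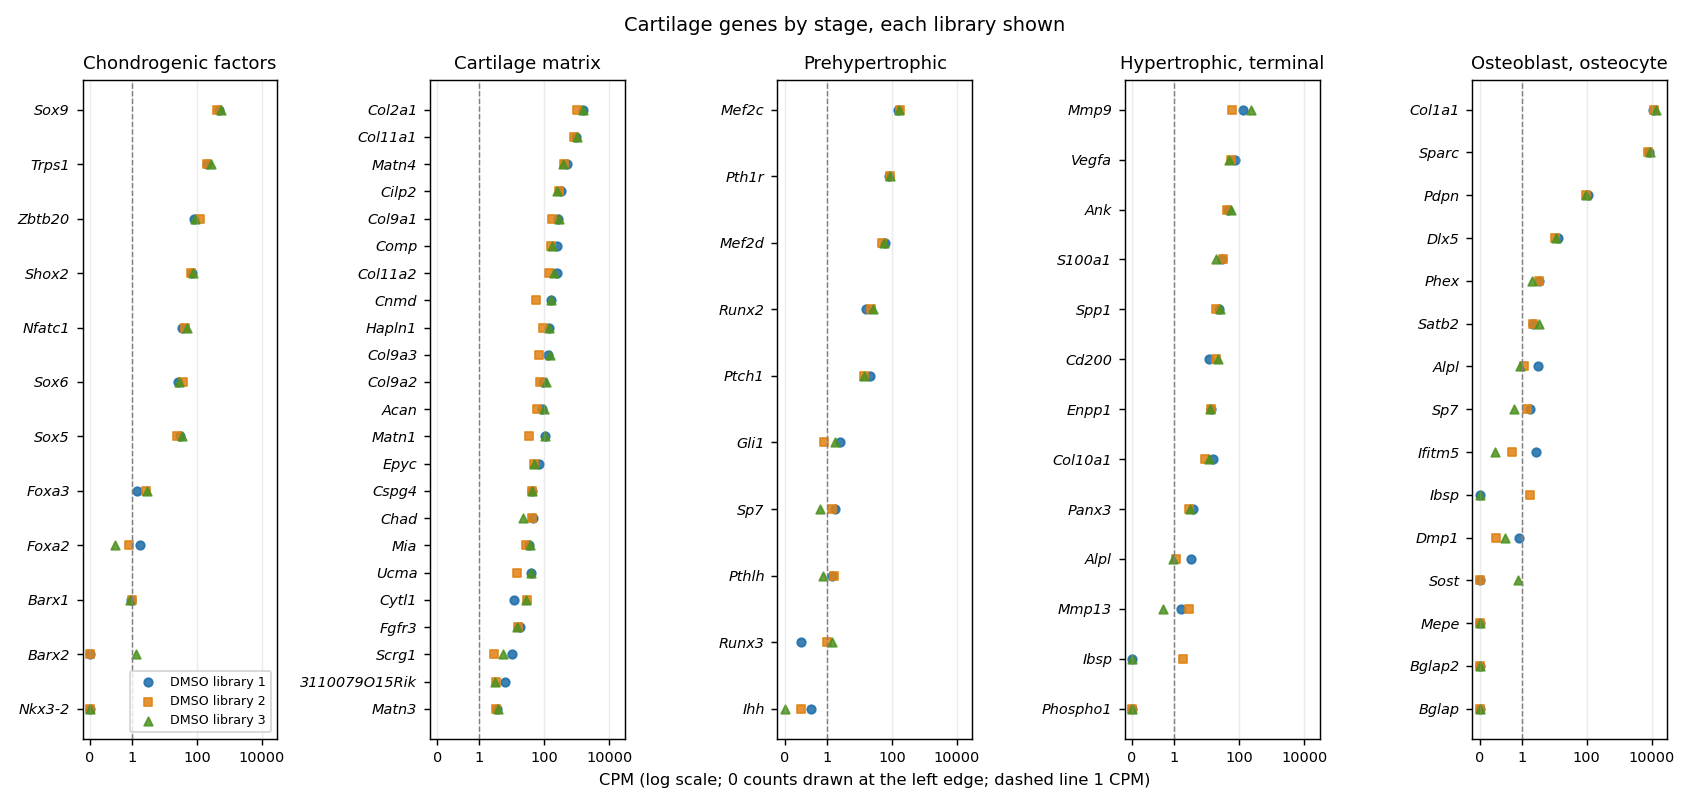
CPM (log axis) of each gene of 5 cartilage and bone lists in DMSO libraries 1, 2 and 3, with 0 counts drawn at the left edge and a dashed line at 1 CPM. Col2a1 and Sox9 lie far to the right of the line in every library, while Ihh, Mmp13, Alpl and Ibsp lie near or under the line.

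Among collagen genes, Col1a1, Col1a2 and Col3a1 had a higher mean than Col2a1, while most other fibroblast genes were below it. Col1a1 exceeded Col2a1 7.35- to 11.3-fold, a measured limit on reading the libraries as those of chondroblasts. The perichondrium and loose fibroblast list had a summed level of 6458, 6674 and 6402 CPM. In it 14 of 16 members reached 1 CPM in all libraries, against 54.6% of protein-coding genes. Among the small leucine-rich proteoglycans, which regulate collagen fibrils, biglycan exceeded decorin (Dcn, 1037, 991 and 729 CPM) 2.72- to 4.16-fold. Below these came osteoglycin (Ogn, 774 ± 39 CPM), lumican (Lum, 644 ± 52.6 CPM), asporin (Aspn, 445 ± 4.60 CPM) and fibromodulin (Fmod, 309 ± 52.5 CPM). Dpp4, a marker of fibroblast progenitors in adult tissue, had 0, 1 and 0 counts, and Pi16 had 0.791, 0.329 and 1.04 CPM.

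Tendon genes were well represented. Scx, the transcription factor of tendon progenitors, had 81.5, 101 and 126 CPM, and Tnmd, the tendon membrane protein tenomodulin that marks later tenocytes, had 219, 252 and 255 CPM (ENSMUSG00000031250, chromosome X, 133850980 to 133865577, plus strand). Tnmd exceeded Scx 2.03- to 2.69-fold, and Mkx, a second tendon regulator, had 30.4, 25.3 and 34.7 CPM. Tnxb and Ptx4 of the tendon list had 0 counts. In all 10 of 12 genes of the list reached 1 CPM in every library, against 54.6% of protein-coding genes. Library 3 had the highest value for 8 of its 10 members above 10 CPM, against 38.8% of all such genes, among them Egr1 (141, 157 and 293 CPM), which growth signals also induce in many cells.

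Joint markers gave a mixed picture. Of the list, 13 of 14 members (92.9%) reached 1 CPM in all 3 libraries, against 54.6% of protein-coding genes. Gdf5, the ligand that defines the joint interzone, had only 1.27, 1.81 and 1.48 CPM, and Prg4, lubricin of the joint surface, 8.86, 6.74 and 14.5 CPM. Erg, a factor of interzone cells and of endothelium, had 17.7, 24.7 and 34.3 CPM. The list's summed level of 1166 ± 52.4 CPM rested on the Wnt antagonist Sfrp2 (683, 540.3 and 563 CPM) and the secreted protease gene Htra1 (256, 315 and 311 CPM), which other mesenchyme also expresses.

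Within growth factor families, levels of related members differed widely. Igf2 exceeded Igf1, the postnatal growth factor, 7.66- to 8.13-fold, with Igf1 at 781, 710.1 and 1037 CPM. This ratio is uncertain, since 99.4% of the Igf2 end words are shared. Of the IGF-binding proteins, Igfbp4 led at 3531, 3481 and 3728 CPM and exceeded Igfbp5 2.75- to 2.96-fold, and Igfbp1 had 0 counts. Bmp4, a cartilage-promoting ligand, had 297, 300.1 and 329 CPM and exceeded Bmp2 17.4- to 20.8-fold. Among receptors, Bmpr1a (117, 125 and 116 CPM) lay above Bmpr1b, the receptor of condensing cartilage (20.3, 17.1 and 15.7 CPM), in each library. Noggin (Nog), an antagonist of BMPs made by cartilage, had 7.76, 9.87 and 13.7 CPM.

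The TGF-beta and FGF families were as uneven. Tgfb2 had 221, 221 and 231 CPM and exceeded Tgfb1 17.2- to 22.3-fold, with Tgfb3 at 145, 151 and 203 CPM. Fgfr1, of mesenchyme, had 279.5, 326 and 305 CPM and exceeded Fgfr3, the receptor that restrains growth plate chondrocytes, 15.5- to 21.9-fold. Fgfr2, of early condensations, had 148, 131 and 148 CPM, and the order of all 5 receptor genes was the same in 3 of 3 libraries. Fgf8 and Fgf4, signals of the apical ectodermal ridge, had 0 counts. Wnt5a, a noncanonical ligand of distal limb mesenchyme, led the Wnt ligands at 74.4, 76.8 and 73.4 CPM and exceeded Wnt5b 2.36- to 5.70-fold. Wnt16 lay between them in mean level (26.9 CPM). Of 19 Wnt genes 9 had 0 counts, as had 32397 of all 52550 genes, and 6 (31.6%) reached 1 CPM in all libraries, against 54.6% of protein-coding genes.

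Matrix proteases were led by membrane and gelatinase types. Mmp14, the membrane collagenase of mesenchyme, had 881, 967 and 1009 CPM and exceeded Mmp2, which it activates, 2.68- to 3.47-fold. Mmp3, a stromelysin, had 0.317, 0.493 and 0.594 CPM, under 1 CPM in every library. The inhibitor gene Timp2 was above both in each library, at 1291, 1296 and 1324 CPM, exceeding Timp3 (451, 450.3 and 426 CPM, 100.0% of end words shared) 2.86- to 3.11-fold and Timp1 9.12- to 12.7-fold. Of the aggrecan-cleaving enzymes, Adamts5 had 179, 204 and 146 CPM and exceeded Adamts4 (15.7, 14 and 16.2 CPM) 9.04- to 14.6-fold. Adamts1, which cleaves versican, had 186, 178 and 206 CPM.

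Several caspase genes, whose products the inhibitors of the other cultures target, are given here at their level with vehicle. Casp12, linked to the endoplasmic reticulum in mice, had 39.9, 51.8 and 55.8 CPM (ENSMUSG00000025887, chromosome 9, 5345430 to 5373032, plus strand), and Casp6, an effector caspase, had 28.2, 30.4 and 32.6 CPM. Among initiator genes, Casp8 of death receptors had 29.6, 32.4 and 37.1 CPM, Casp2 had 26.1, 27.1 and 22.9 CPM and Casp9 of the mitochondrial pathway had 21.8, 13.5 and 23.3 CPM. The inflammatory caspase genes Casp1 (7.12, 9.87 and 9.50 CPM) and Casp4 (2.53, 4.77 and 2.37 CPM) were lower, in libraries that held macrophage transcripts, and the skin gene Casp14 had 0, 0 and 1 counts. Over all families 154 of 246 neighbouring pairs kept their order in all 3 libraries, and for 131 of them the ranges of the libraries did not overlap. Neighbours were set by the mean of the same 3 libraries, so part of this agreement is built in.

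Macrophages were the clearest cell type from outside the mesenchyme. Of their list, 21 of 23 genes reached 1 CPM in all 3 libraries, against 54.6% of protein-coding genes, with a summed level of 2845, 3327 and 1709 CPM. Lyz2, the lysozyme of myeloid cells, had 761, 783 and 412 CPM, Csf1r, the receptor for their survival factor, 179, 219 and 124 CPM, and C1qa, a complement component that tissue macrophages secrete, 168, 225 and 100.5 CPM. Cd163, a scavenger receptor of some mature macrophages, had 0 counts. Cx3cr1, a chemokine receptor, had 85.1, 178 and 82.5 CPM and Pf4, made by yolk-sac-derived macrophages and by megakaryocytes, 132, 133 and 61.6 CPM. Other blood lineages were close to the floor. Cd79a and Cd3e of lymphocytes and Mpo of granulocytes had 0 counts, and Cpa3 of mast cells had 2, 0 and 0. Hbb-y, an embryonic globin gene, had 17, 9 and 11 counts, and Alas2 and Slc4a1 had 0. The end words of Hba-a1, Hba-a2 and Alas2 were mostly shared, so those values are uncertain, whereas Hbb-y shared 0%.

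Osteoclast genes ran against the macrophage genes. Their summed level was 319, 219.6 and 490.1 CPM. Of the list, 7 of 11 members (63.6%) reached 1 CPM in all 3 libraries, against 54.6% of protein-coding genes. Library 3 was the highest for all 6 members above 10 CPM, against 38.8% of all genes at that level. It was the lowest for all 21 such macrophage genes, against 34.9%. Mmp9, a gelatinase of osteoclasts, had 127, 60.0 and 223 CPM, Acp5, the tartrate-resistant phosphatase, 25.2, 9.54 and 45.3 CPM, and Ctsk, the collagen-degrading cathepsin, 88, 67.1 and 111 CPM. Atp6v0d2, a proton pump subunit, had 5.06, 3.95 and 11.6 CPM. Genes of cell fusion were highest in library 3, with Dcstamp at 0, 0 and 25 counts and Ocstamp at 3, 0 and 15. Calcr, the calcitonin receptor of mature osteoclasts, had 1, 0 and 3 counts.

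Several defining endothelial genes were at or near 0. Pecam1 had 0, 0 and 2 counts, Kdr 2.53, 1.48 and 0.445 CPM, and Cdh5, Cldn5, Sox17, Vwf and Robo4 had 0. In all 6 of 17 list members (35.3%) reached 1 CPM in all libraries, against 24.0% of all genes and 54.6% of protein-coding genes. They were led by Erg and Flt1 (27.4, 25.5 and 15 CPM), and Erg is also a joint marker. Lymphatic markers were as sparse, since Pdpn (109, 91.4 and 94.7 CPM), which fibroblasts and bone cells also express, held 92% of that list's sum. Of the Schwann cell list 4 of 14 genes and of the ectoderm list 5 of 18 reached 1 CPM in all libraries, shares of 28.6% and 27.8%, near the 24.0% of all genes and under the 54.6% of protein-coding genes. Sox10, which defines Schwann cells and melanoblasts, had 0 counts, and S100b, shared with chondrocytes, had 30.2, 21.5 and 13.2 CPM. Tyr, Tyrp1 and Slc45a2 of melanocytes had 0 counts, and Mitf, also a macrophage and osteoclast gene, had 14.1, 14.1 and 13.9 CPM. In skin, Krt5 had 0, 1 and 0 counts, Krt14 had 0, 4 and 0 counts, Trp63 had 2.69, 1.15 and 1.93 CPM and Cdh1 0, 3 and 0 counts. Of the neuron list 6 of 13 genes (46.2%) reached 1 CPM in all libraries, between the 24.0% of all genes and the 54.6% of protein-coding genes. Snap25 had 0 counts, and Map2 (66.9, 51 and 88.6 CPM) held 64.5% of the neuron list's sum.

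**Figure D4:**
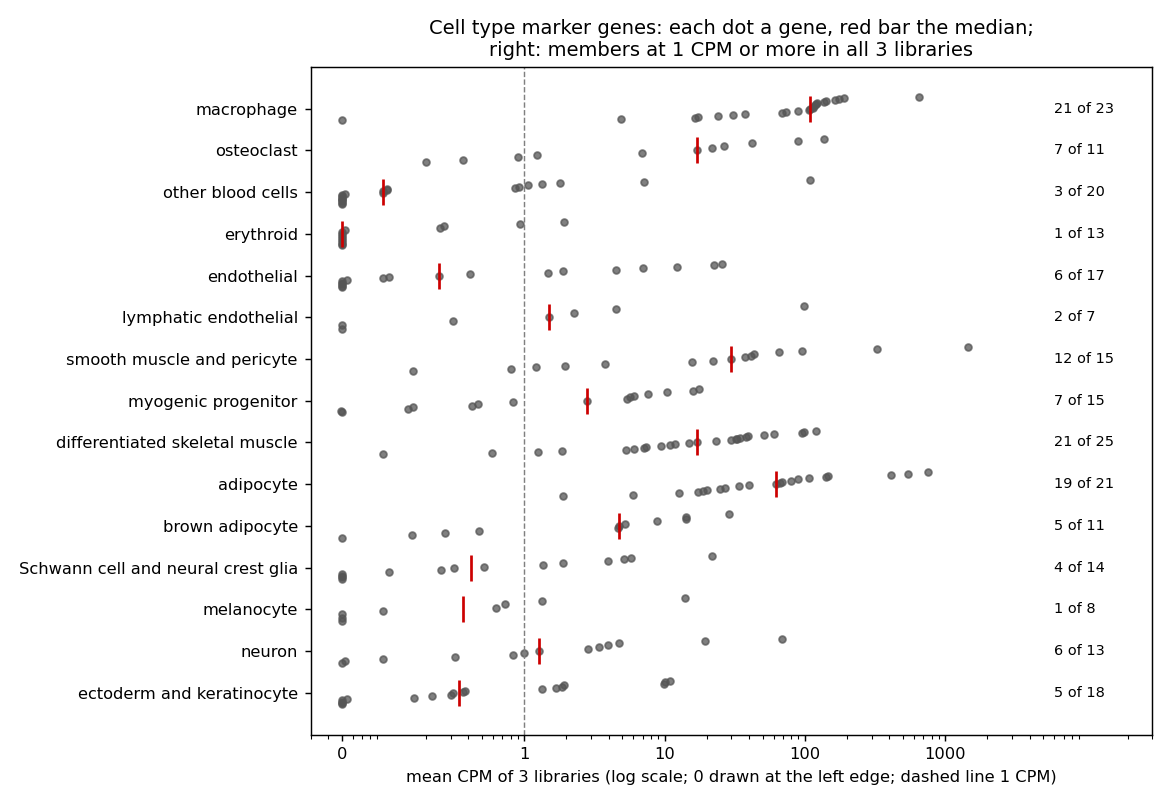
Mean CPM over 3 libraries (log axis) of each gene of 15 cell type lists, with the list median as a red bar and, at the right, the number of members at 1 CPM or more in all 3 libraries. Macrophage (21 of 23), adipocyte (19 of 21) and differentiated skeletal muscle (21 of 25) genes lie mostly above the dashed line, and erythroid (1 of 13) and melanocyte (1 of 8) genes mostly below it. Of protein-coding genes, 54.6% reached 1 CPM in all 3 libraries.

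Adipocyte transcripts were abundant in 2 of the libraries. Fabp4, the lipid-carrying protein of fat cells, had 839, 717 and 74 CPM (ENSMUSG00000062515, chromosome 3, 10204088 to 10208576, minus strand), Adipoq, the fat hormone adiponectin, 214, 189 and 21.2 CPM, and Plin1, which coats lipid droplets, 103, 89 and 8.90 CPM. Library 3 was the lowest for 19 of 19 members above 10 CPM, against 34.9% of all genes at that level. In each of these members the highest library was at least 2-fold above it. Of 9444 genes, 3.38% had that spread and 2.13% had it with library 3 lowest. Lpl, the member with the highest mean, had 1006, 922 and 327 CPM, a ratio of 3.08. The median ratio of highest to lowest library was 10.1 over these members and 1.22 over all 9444 genes. Pparg and Cebpa, the transcription factors that drive fat formation, had 38.3, 33.9 and 8.16 CPM and 83.4, 85.2 and 38 CPM, a smaller spread than the 11.3-fold of Fabp4. The summed level of the list was 3843, 3473 and 699 CPM, below the summed level of the cartilage matrix list in libraries 1, 2 and 3. Brown fat genes were few. Ucp1, the uncoupler that defines brown fat, had 3, 0 and 0 counts and Elovl3 had 0, while Ebf2 (22.8, 40.6 and 23 CPM) and Prdm16 (11.9, 19.2 and 11.6 CPM), which mesenchymal cells also express, were present.

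Of the fatty acid-binding protein family 3 of 9 genes (33.3%) reached 1 CPM in all libraries, under the 54.6% of protein-coding genes. Fabp4 held 90.8% of the family's summed level. Fabp5, a broadly expressed member, had 62.2, 39.8 and 29.5 CPM and was lowest in library 3, whereas Fabp3, of muscle and heart, had 7.91, 10.2 and 13.2 CPM and was highest there. Fabp4 exceeded Fabp5 in each library, by 13.5-, 18.0- and 2.51-fold. Fabp1, Fabp2 and Fabp6, of liver and gut, had 0 counts.

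Skeletal muscle genes had the opposite pattern. Of the differentiated muscle list, 21 of 25 reached 1 CPM in all 3 libraries, against 54.6% of protein-coding genes, and the summed level was 356, 543 and 1357 CPM. Its mean of 752 CPM was 450 CPM without library 3. At least 50% of end words were shared for 4 of the 25 members. Library 3 was the highest for 16 of 16 members above 10 CPM, 15 of them at least 2-fold above the lowest library. Over all 9444 genes library 3 was the highest for 38.8%, and 0.879% also passed 2-fold. Mylpf, a fast myosin light chain, had 49.2, 84.9 and 228 CPM and Tnnc1, slow troponin C, 18.5, 37.3 and 98.5 CPM. The myosin heavy chains were those of developing muscle, with embryonic Myh3 at 19.2, 27.6 and 56.8 CPM and perinatal Myh8 at 18, 24.7 and 27.6 CPM. Of the adult fast genes, Myh1 had 1.42, 0.987 and 1.34 CPM and Myh4 0.950, 0.493 and 4.15 CPM, and Ckm, creatine kinase of mature fibres, had 0, 0 and 2 counts. Myog, which starts terminal differentiation, had 3.48, 5.26 and 22.4 CPM and Mymk, which drives myoblast fusion, 9.81, 10.0 and 28.3 CPM. Early progenitor genes were near absent, with Pax7 at 0 counts, Pax3 at 0, 0 and 1 and Myf5 at 0.475, 0.493 and 0.297 CPM.

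Of the 6 actin genes, Actb and Actg1 are cytoplasmic forms of all cells and the others belong to muscle types. Acta2, of smooth muscle and myofibroblasts, had 1181, 1328 and 1844 CPM (ENSMUSG00000035783, chromosome 19, 34241090 to 34255590, minus strand) and exceeded the visceral smooth muscle gene Actg2 (26, 38.2 and 65.4 CPM) 28.2- to 45.5-fold. The skeletal gene Acta1 had 52.5, 65.6 and 169.7 CPM and the cardiac gene Actc1, also used by embryonic skeletal muscle, 42.1, 61.2 and 195 CPM. Acta2 exceeded Acta1 10.9- to 22.5-fold and Actc1 9.48- to 28-fold, with the smallest ratio in library 3 for both. Actb exceeded Acta2 4.04- to 5.94-fold. All 4 muscle actins were highest in library 3. With Acta2 ran Tagln (269, 285 and 427 CPM) and Cnn1 (53, 57.2 and 87.5 CPM), contractile genes of smooth muscle and myofibroblasts, whereas Myh11, the heavy chain of mature smooth muscle, had 1.58, 2.30 and 1.93 CPM and the pericyte gene Rgs5 3.32, 1.97 and 6.08 CPM.

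The promoters of the actin genes in the RefSeq table (build GRCm38.p6, 250 bases before to 50 after the annotated start, read 5′ to 3′ on the gene's strand) are shown because these family members differ in their known tissues and in their levels. Of 6 actin genes, 4 had an entry. Capitals mark the CArG box, the site type bound by serum response factor, searched by its name's consensus on both strands.
Acta1 (chr8:123894726-123895025, minus strand): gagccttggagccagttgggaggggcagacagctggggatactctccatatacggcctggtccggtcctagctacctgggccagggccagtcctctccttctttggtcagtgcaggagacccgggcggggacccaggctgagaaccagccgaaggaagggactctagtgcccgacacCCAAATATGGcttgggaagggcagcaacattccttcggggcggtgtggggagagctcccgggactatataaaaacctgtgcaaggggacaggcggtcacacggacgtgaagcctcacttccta
Actc1 (chr2:114052826-114053125, minus strand): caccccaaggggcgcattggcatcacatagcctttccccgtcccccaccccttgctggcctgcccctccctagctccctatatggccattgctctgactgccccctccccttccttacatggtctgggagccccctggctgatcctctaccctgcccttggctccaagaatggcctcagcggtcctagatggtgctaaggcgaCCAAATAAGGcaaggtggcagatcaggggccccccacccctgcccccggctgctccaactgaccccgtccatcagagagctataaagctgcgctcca
Actg1 (chr11:120348446-120348745, minus strand): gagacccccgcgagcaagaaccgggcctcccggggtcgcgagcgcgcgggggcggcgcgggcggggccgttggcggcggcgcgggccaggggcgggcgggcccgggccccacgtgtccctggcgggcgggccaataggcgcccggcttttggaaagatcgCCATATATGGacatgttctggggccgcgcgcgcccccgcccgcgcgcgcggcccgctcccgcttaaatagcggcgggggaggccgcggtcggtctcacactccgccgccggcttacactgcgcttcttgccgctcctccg
Acta2 (chr19:34255324-34255623, minus strand): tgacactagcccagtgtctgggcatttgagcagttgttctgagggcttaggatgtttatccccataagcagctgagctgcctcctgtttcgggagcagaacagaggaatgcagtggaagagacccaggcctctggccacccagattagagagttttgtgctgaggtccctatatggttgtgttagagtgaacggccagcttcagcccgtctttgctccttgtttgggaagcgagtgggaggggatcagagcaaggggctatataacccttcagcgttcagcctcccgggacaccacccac
A full match was found in 3 of the 4, in Acta1, Actc1 and Actg1, beginning 73, 47 and 90 bases before the annotated start. These distances hold for the start of the RefSeq entry only. The gene coordinates given above for Acta2 place its start elsewhere in the same window. None was found in the window of Acta2, the most abundant of the 4 by count. The search took only exact matches to CCWWWWWWGG, with W for A or T. Near matches such as ccctatatgg and ccttgtttgg in the Acta2 window were not counted, so 0 matches does not mean that a promoter lacks a site of this type. Of 27025 genes with a promoter entry, 488 (1.81%) held a match. In the differentiated muscle list it was 3 of 22 genes with an entry. These include Acta1 and Actc1, already shown above, so that list is not a separate set. In the smooth muscle list it was 0 of 11, in the adipocyte list 0 of 15 and in the cartilage matrix list 0 of 18. A match describes the sequence and not the use of a site.

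**Figure D5:**
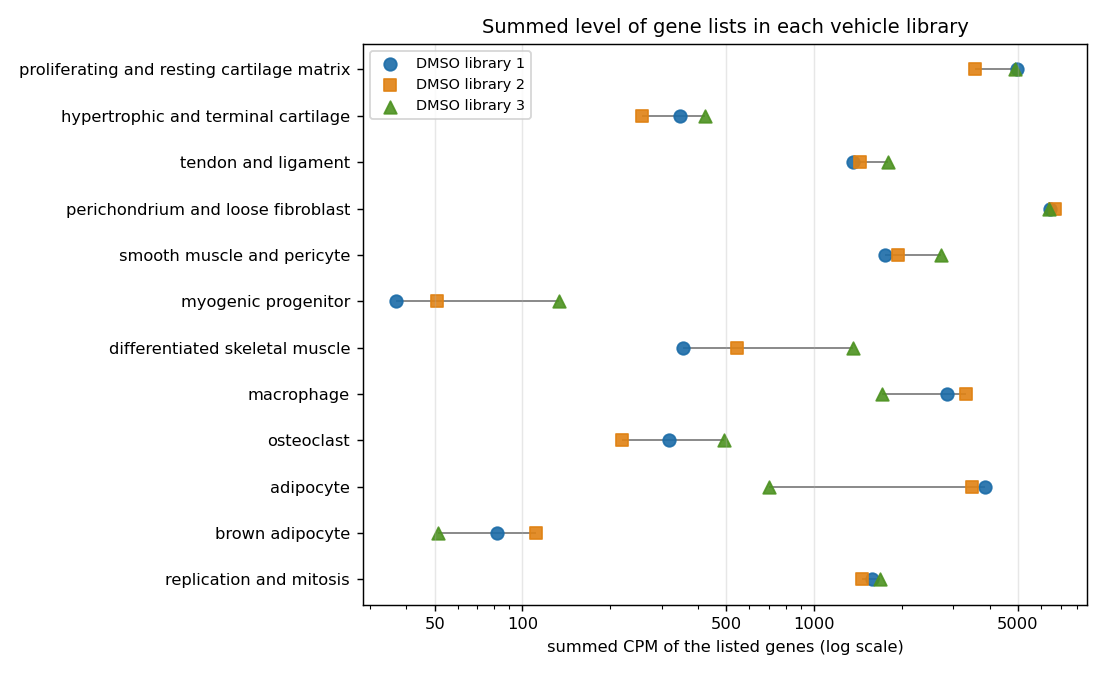
Summed CPM (log axis) of 12 gene lists in DMSO libraries 1, 2 and 3, joined by a line from lowest to highest. Library 3 is lowest for adipocyte and macrophage genes and highest for muscle and osteoclast genes, library 2 is lowest for cartilage matrix genes, and fibroblast and replication genes differ little.

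Adipocyte and muscle genes were among those that differed most between the libraries. Of 9444 genes with a mean of at least 10 CPM, 319 (3.38%) had a highest library at least 2-fold above the lowest. In 201 of them (2.13%) library 3 was the lowest and in 83 (0.879%) the highest. The number was 65 without library 3 and 198 without library 1, so it rested mainly on library 3. The biological coefficient of variation over the 3 libraries was 0.167 in common and 0.128 at the median of these genes. None of the 30 genes of the replication and mitosis list passed 2-fold, and its summed level was 1585, 1461 and 1677 CPM. Above 10 CPM, none of 14 limb mesenchyme, 6 SOX, 6 HOXA, 5 HOXD and 1 HOXC genes passed it either. With 3.38% of all such genes past 2-fold, lists of this size would hold few or none, so this does not set them apart. The widest ratio was 1.98 in the replication list and 1.997 in the limb mesenchyme list. The 20 widest genes included 10 of the adipocyte list. Retn, the hormone resistin, had 34.7, 15.6 and 1.48 CPM, Cfd, the adipocyte protease adipsin, 147, 112 and 7.42 CPM, and Pck1, an enzyme of glyceroneogenesis, 41.9, 30.9 and 2.23 CPM. Wfdc21 was widest, with 163, 29 and 1 counts. The pseudogenes Rpsa-ps10 (44.9, 90.1 and 2.37 CPM) and Gm4366 (1.42, 11.3 and 19.6 CPM) were also among them, and their end words were 70.9% and 80.1% shared. Whether litter, dissection, culture or library preparation moved with these differences was not tested, since the labels give none of them for single libraries.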

How the data were processed

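The authors deposited raw counts per gene for each library and a summed count per group, which equalled the sum of the 3 vehicle libraries in 52649 of 52649 rows. Per the labels, library preparation was by QuantSeq FWD, which primes at poly(A) tails. STAR, cutadapt, DESeq2, MultiQC and FastQC are named, per the submitters' processing notes, with the build mm10 and no versions. The sources used here do not state the counting program, its annotation or its use of strand, so overlapping and antisense genes may share reads. The authors' own comparisons were not used. Some list members are not reported here.

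The 99 spike-in rows (0 counts) were left out, which left 52550 genes. Identifiers were looked up in GENCODE M21 (GRCm38, the assembly of mm10), where 99.72% were found, 96.49% of them with the same start. Counts were scaled with edgeR 4.0.16 (TMM) in R 4.3.3, with DESeq2 1.42.0 size factors (RLE) and library totals as alternatives. The floor of 3 counts in a single library is 0.475, 0.493 and 0.445 CPM. Floors cover counting error only, since copies made by PCR are not independent molecules. No library was a copy of another: chi-square over genes, divided by its degrees of freedom, was 5.47 to 13.5 for the 3 pairs. Spread was computed by edgeR with 1 mean per gene and tested on simulated data.

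The 59 gene lists (730 genes) came from textbook knowledge, and the libraries and lists were chosen with earlier results of these data known. The rule for named genes took the 30 most abundant genes, up to 6 leading members and the undetected defining members of each list, and the 20 genes with the widest spread. Other list members are named for their known role and were picked after their values were seen.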

Additional observations from a re-analysis of the deposited data

How the results depend on the processing

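RLE scaling and scaling by library total moved 0 of 204 values by over 1.5 times. This outcome was fixed by the factors, which were all close to 1. For libraries 1, 2 and 3 they were 0.998, 1.004 and 0.998 by TMM and 0.996, 1.004 and 0.9995 by RLE. The 3 scalings were thus nearly the same, and their agreement does not show that a level is stable. With 1 of 3 libraries left out a mean cannot move by 1 SD, so these levels were read by the same 1.5-fold limit, chosen after seeing the data. Leaving out a low library can raise a mean at most about 1.5 times, so only the loss of a high library could pass this limit. The adipocyte sum, low in library 3, went from 2672 to 3662 CPM without that library, and staying within the limit does not show it to be stable. Of 228 such levels 12 passed it. They were the summed levels of the differentiated skeletal muscle list (752 to 450 CPM) and the myogenic progenitor list (73.8 to 43.8 CPM) without library 3, and 10 of the 20 genes with the widest spread, such as Wfdc21 (10.2 to 2.46 CPM without library 1) and Mb (14.8 to 6.70 CPM without library 3). For Mb, 54.3% of end words were shared. The 30 most abundant genes summed to 175164 CPM, to 166546 CPM without mitochondrially encoded genes, and to 142355 CPM without Gm42418, an alternative chosen after seeing the data. The number of genes past 2-fold, 319, was 630 at a minimum mean of 5 CPM and 152 at 20 CPM, and 65 to 215 with 1 library left out: 198 without library 1, 215 without library 2 and 65 without library 3, so it rests mainly on library 3. Detection counts moved with the level required. At 0.5 CPM 8 prehypertrophic genes (5 at 1 CPM) and 2 melanocyte genes (1 at 1 CPM) were counted. At 5 CPM the counts were 0 for erythroid, 1 for lymphatic, 3 for myogenic progenitor, 3 for brown adipocyte, 1 for Schwann cell, 2 for neuron and 3 for ectoderm genes. With 1 library left out, erythroid genes numbered 1 to 2 and melanocyte genes 1 to 2. No paired analysis was possible because the 3 libraries are 1 group and no result comes from a test. Depth limits genes near 1 CPM, and 3 libraries limit every SD.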

Other observations

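Genes of dividing cells were detected throughout. All 30 of 30 replication and mitosis genes reached 1 CPM in every library, against 54.6% of protein-coding genes. Listed genes included Top2a, the topoisomerase of dividing cells (154, 125 and 145 CPM), and Cdk1, the mitotic kinase (106, 89.1 and 96.1 CPM). Inhibitor genes of the cell cycle were present beside them. Cdkn1c exceeded Cdkn1a, the p53-regulated inhibitor (119, 114 and 159.7 CPM), 3.37- to 4.73-fold, and Cdkn2a, which accumulates in culture, had 80.6, 84.5 and 87.5 CPM. Of the glycolysis and hypoxia list 24 of 24 genes reached 1 CPM, led by the aldolase gene Aldoa (759, 632 and 762 CPM) and lactate dehydrogenase Ldha (696, 581 and 718 CPM). At least 50% of end words were shared for 3 of the 24 listed genes. The hypoxia-induced gene Car9 had 48.7, 27.1 and 47.9 CPM.

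RNA of both sexes was present in each library. Xist, the noncoding RNA of the inactive X chromosome, had 263, 129 and 100.0 CPM, and the Y-linked helicase gene Ddx3y had 48.1, 98.3 and 101 CPM, with Eif2s3y at 12.7, 24.7 and 25.1 CPM. Library 1 had the most Xist and the least Ddx3y, and the labels do not give the sex of the embryos. Xist was lowest in library 3, as were the noncoding RNAs below, and whether its level followed the sex of the embryos was not tested.

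Several noncoding RNAs differed between the libraries in the same direction. Malat1 had 5897, 4053 and 1295 CPM, Neat1 254, 168 and 78.2 CPM, Meg3 1479, 1055 and 572 CPM and Mirg 84.2, 53 and 31 CPM, each lowest in library 3. Xist, Gm42418 and the mitochondrial ribosomal RNA mt-Rnr2 (2893, 2588 and 1659 CPM) were also lowest there. H19, also noncoding, was highest in library 3. What moved with this was not tested.

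Some genes past 2-fold lay outside the lists and were picked after their values were seen. Iigp1, Igtp and Gbp7, interferon-induced GTPase genes, had 45.1, 23.4 and 11.6 CPM, 20.4, 13.2 and 7.12 CPM and 38.8, 32.6 and 12.5 CPM. The immediate early genes Fos, Junb and Nr4a1 had 13.9, 21.2 and 30.6 CPM, 43, 36.7 and 80.9 CPM and 27.2, 19.7 and 51 CPM. The former were lowest and the latter highest in library 3.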
